A study of Gallus gallus with 6 samples.

Results

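The miRNAs described here are 10 mature miRNAs (short RNAs that repress target transcripts) of abdominal fat, chosen by name because miR-33, miR-103, miR-107, miR-122 and miR-148a are studied in lipid metabolism. The rule took every row of the deposited table named for miR-33, miR-103, miR-107, miR-122, miR-122b, miR-148a or miR-378, with both arms of a hairpin and all copies. It found 10 of 667 mature miRNAs, from 5 of the 7 hairpin names: gga-miR-33-5p, gga-miR-33-3p, gga-miR-103-3p, gga-miR-103-2-5p, gga-miR-107-3p, gga-miR-107-5p, gga-miR-122-5p, gga-miR-122-3p, gga-miR-148a-3p and gga-miR-148a-5p, written below without the prefix gga for chicken. No row carried the name miR-122b or miR-378, which are not analysed here. The 6 small RNA libraries come from abdominal fat of female broiler chickens (Gallus gallus) at day 35, in a feeding study of 240 chicks that were 1 day old at the start. One group of 3 libraries was labelled with 50 IU of vitamin E, given as DL-α-tocopherol acetate, and the other 3 were labelled control. The study's diets held 0, 20, 50, 75 or 100 IU, and the dose of the control diet is not printed beside its libraries. Whether each library is 1 bird is not stated in the labels, and p-values here cover the spread between libraries alone, which may be technical.

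A miRNA is cut from a hairpin whose arms (5p and 3p) can both yield a mature strand, and usually one arm, the guide, is kept while the other, the passenger, is degraded. In mammals miR-33 lies in the genes of the sterol regulatory element-binding proteins, which drive sterol and fatty acid synthesis, and it represses the cholesterol exporter ABCA1. miR-103 and miR-107, near-identical in sequence, lie in pantothenate kinase genes, whose products start coenzyme A synthesis, and were shown in mice to lower insulin sensitivity. miR-122 is the dominant miRNA of the vertebrate liver and sustains cholesterol and fatty acid synthesis there in mice. miR-148a promotes fat cell differentiation in human and mouse cells and represses the low-density lipoprotein receptor in liver.

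The same gene arrangement was found in the chicken gene table of assembly GRCg7b. One miR-33 gene lies within the span of SREBF2, the regulator of cholesterol synthesis, and the other within SREBF1, the regulator of fatty acid synthesis. The miR-103 genes lie within PANK3 and PANK2 and the miR-107 gene within PANK1. For miR-33-5p, miR-103-3p and miR-122-5p, which have 2 genes each, reads of the copies cannot be told apart. Near-identical copies can share reads, by a rule not given in the sources used here. This leaves the split between miR-103-3p and miR-107-3p uncertain. A miR-122 gene and a miR-122b gene overlap at 1 locus, but how alike their mature sequences are was not checked.

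Library totals ran from 5028671 to 7357204 counts. Scaling factors (TMM, edgeR's correction for composition) were 1.00 to 1.05 in 5 libraries and 0.860 in control 1. Pearson correlations of log2 levels across the tested miRNAs were 0.960 to 0.970 between control libraries, 0.980 to 0.988 between vitamin E libraries and 0.967 to 0.980 across the groups. No miRNA on the lists used here marks fat cells alone, so the tissue label could not be checked against a defining marker. In bulk tissue, fewer cells of a type and less RNA per cell cannot be told apart.

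The 10 miRNAs spanned more than 5 orders of magnitude in level, given here as counts scaled to a total of 1000000 (CPM) on TMM-scaled library sizes, with no length term. miR-148a-3p was the most abundant at a mean of 52003 CPM over the 6 libraries, and ranked 6 of 667 miRNAs. It made up 91.7% to 95.6% of the counts of the 10 miRNAs, which together took 3.60% (control 1) to 7.13% (vitamin E 2) of a library. miR-103-3p followed at 2275 CPM, then miR-107-3p at 858, miR-148a-5p at 196, miR-33-5p at 51.5, miR-122-5p at 11.1 and miR-33-3p at 2.33 CPM. Each of these stood above the next in all 6 libraries. The rarest arms were miR-107-5p, with 21 counts over all libraries, miR-103-2-5p with 7 and miR-122-3p with 5. The order of the last 2 was not settled, since miR-103-2-5p was the higher in 3 of 6 libraries and 0 counts in a library leave room for 3, which is 0.395 to 0.594 CPM.

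**Figure D1:**
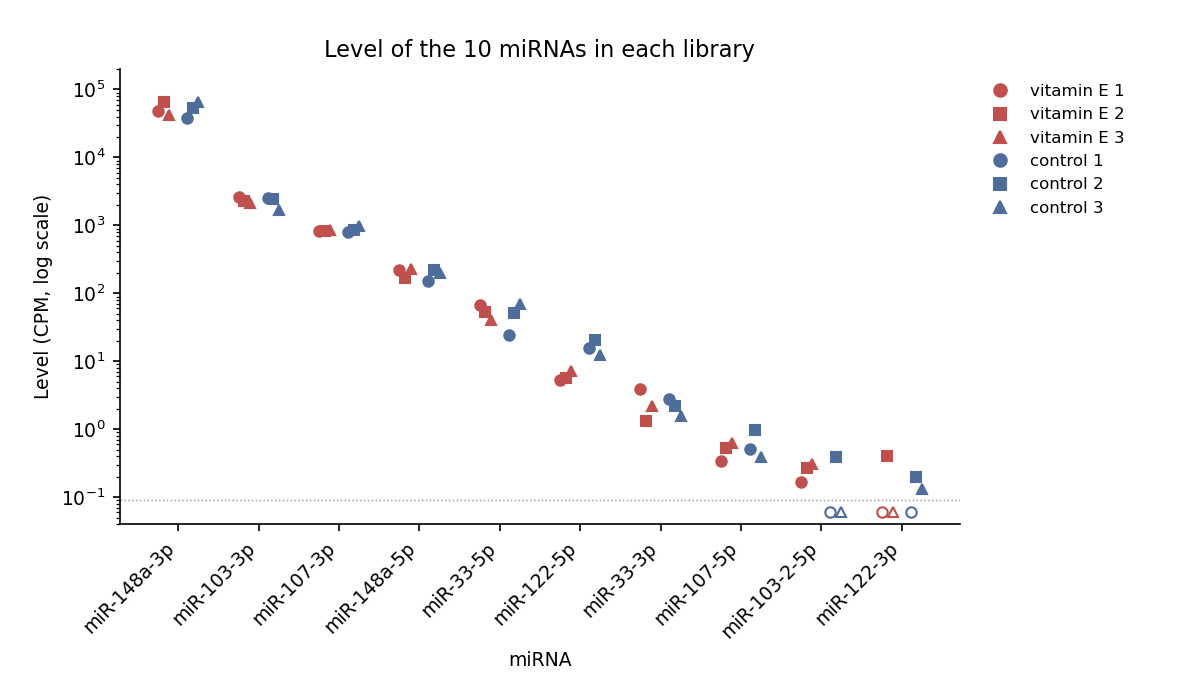
Level of each of the 10 miRNAs (CPM, log scale) in each library, with the vitamin E libraries in red and the controls in blue and 1 symbol per replicate number; open symbols under the dotted line mark libraries with 0 counts. Levels run from miR-148a-3p, at 38320 to 65206 CPM, down to miR-122-3p, at 0 in 3 libraries, and miR-122-5p is the 1 tested miRNA of the set whose groups do not overlap.

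The design asks whether vitamin E changed the levels of these miRNAs in abdominal fat. None of the set passed the threshold of 0.05 on the Benjamini-Hochberg adjusted p of edgeR's quasi-likelihood test, taken over 238 miRNAs. In that fit 7 of the 10 miRNAs passed the filter on low counts and were tested, while miR-107-5p, miR-103-2-5p and miR-122-3p did not. Among all 238 tested, 1 was called (0.42%), miR-9-5p, which was higher with vitamin E. At an unadjusted p under 0.05 the same fit held 1 of the 7, miR-122-5p, where 18 of all 238 had one (7.56%), and 6 of these were on the lower side (2.52%) like miR-122-5p. The groups did not overlap for 1 of the 7, against 33 of all tested (13.9%), and 12 of these were lower (5.04%). DESeq2 called 1 of the set, miR-122-5p, and 7 of all 238. limma-voom and limma on log2(TPM + 0.1) called 0 of the set and 1 of all 238, and limma on log2(TPM + 1) called 0 and 3. DESeq2 run on all 667 miRNAs called 0 of the set and 3 of the 667. Of the 7 tested miRNAs of the set, 4 had fitted log2 fold changes (vitamin E over control) above 0 and 3 below, with a median of 0.08. Over all 238, 109 were above (45.8%) and 129 below, with a median of -0.07. Scaling by library totals alone shifted all log2 fold changes by a median of 0.11, and with it 6 of the 7 were above 0. How many of all 238 were above 0 under that scaling was not counted, so the 6 have no background share.

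**Figure D2:**
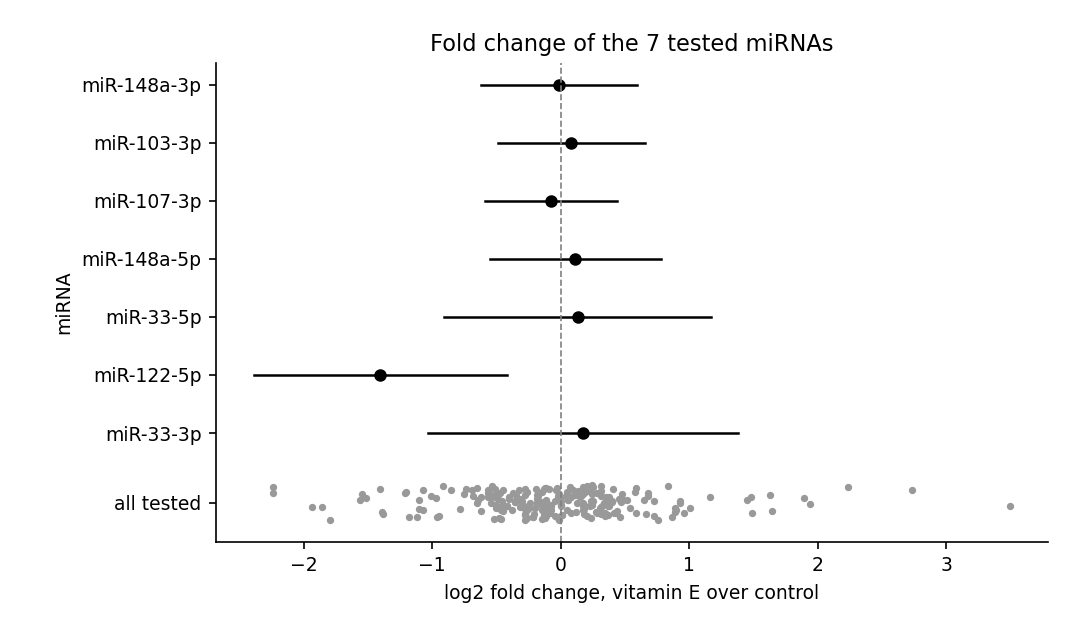
Log2 fold change of vitamin E over control for the 7 tested miRNAs (black points, with 95% intervals from edgeR's quasi-likelihood fit) and for all 238 tested miRNAs (grey points, spread vertically for legibility). The interval of miR-122-5p, from -2.39 to -0.42, lies below 0, and the other 6 intervals include it.

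miR-122-5p, the guide arm of the liver miRNA, was rare in this fat and stood lower in the vitamin E libraries. In the vitamin E libraries 1 to 3 its counts were 31, 42 and 47, or 5.24, 5.67 and 7.32 CPM. The controls had 89, 104 and 93 counts, or 15.5, 20.6 and 12.2 CPM. Every vitamin E library lay below every control, and the lowest control was above the highest vitamin E library by more than the range within vitamin E. Group means were 6.07 ± 1.10 and 16.1 ± 4.21 CPM (SD, n = 3), a 2.65-fold higher level in control. On the summed counts, 120 with vitamin E and 286 in control, the ratio of control to vitamin E was 2.56, with an exact 95% counting interval of 2.06 to 3.20 that covers counting error only. edgeR's log2 fold change was -1.40 (SE 0.43; 95% interval -2.39 to -0.42). It ranked 8 of 238 by p, at an unadjusted 0.0109, and did not pass (edgeR quasi-likelihood, Benjamini-Hochberg adjusted p = 0.325). DESeq2 on the same 238 miRNAs, which called 7 of them, gave -1.46 with a Benjamini-Hochberg adjusted p of 0.0235. DESeq2 on all 667 gave -1.45 with 0.146. When any 1 library was left out the log2 fold change stayed between -1.61 and -1.17.

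Markers of other tissues were set beside miR-122-5p. Besides miR-122 itself, 1 of the other names on the liver list was listed, miR-194, which is expressed in liver and in gut. miR-194 stood at 21.6, 15.8 and 26 CPM with vitamin E and at 36.4, 54.8 and 15.8 CPM in control. It was high in control 1 and control 2, the same libraries in which miR-122-5p was highest, but in control 3 it was as low as in any vitamin E library. The gut list, miR-194 with both arms of miR-215, summed to 108 to 165 CPM with vitamin E and to 147, 918 and 100 CPM in controls 1 to 3. Of the 918 CPM in control 2, 863 came from the single row miR-215-5p. Control 2, the library with the most gut marker counts, was also the highest for miR-122-5p. Without control 2 the log2 fold change of miR-122-5p was -1.17 (edgeR quasi-likelihood, Benjamini-Hochberg adjusted p = 0.369). The epithelial marker miR-205b, chosen after its values were seen, also stood lower in every vitamin E library, at 24.8, 30.8 and 12.8 CPM against 48.6, 230 and 45.3 CPM. It too was highest in control 2. Its log2 fold change of -2.24 (SE 0.71) did not pass (adjusted p = 0.333 in edgeR), while DESeq2 on the 238 called it. The epithelial list mostly went the other way, with 6 of its 8 tested rows above 0. miR-205a, with a log2 fold change of -0.49 (SE 0.58) and overlapping groups, stood at 36.5, 38.2 and 54.9 CPM with vitamin E. In controls 1 to 3 it stood at 120, 28.3 and 33.9 CPM, lowest in control 2, and only control 1 lay above the vitamin E libraries. The part of liver, gut or epithelial tissue in the level of miR-122-5p was not tested. Counts of the passenger arm miR-122-3p were 0, 3 and 0 with vitamin E, against 0, 1 and 1 for the controls, too few for a comparison of the arms. In vitamin E 1, 0 of 31 miR-122 counts allows a passenger share of up to 9.68%.

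**Figure D3:**
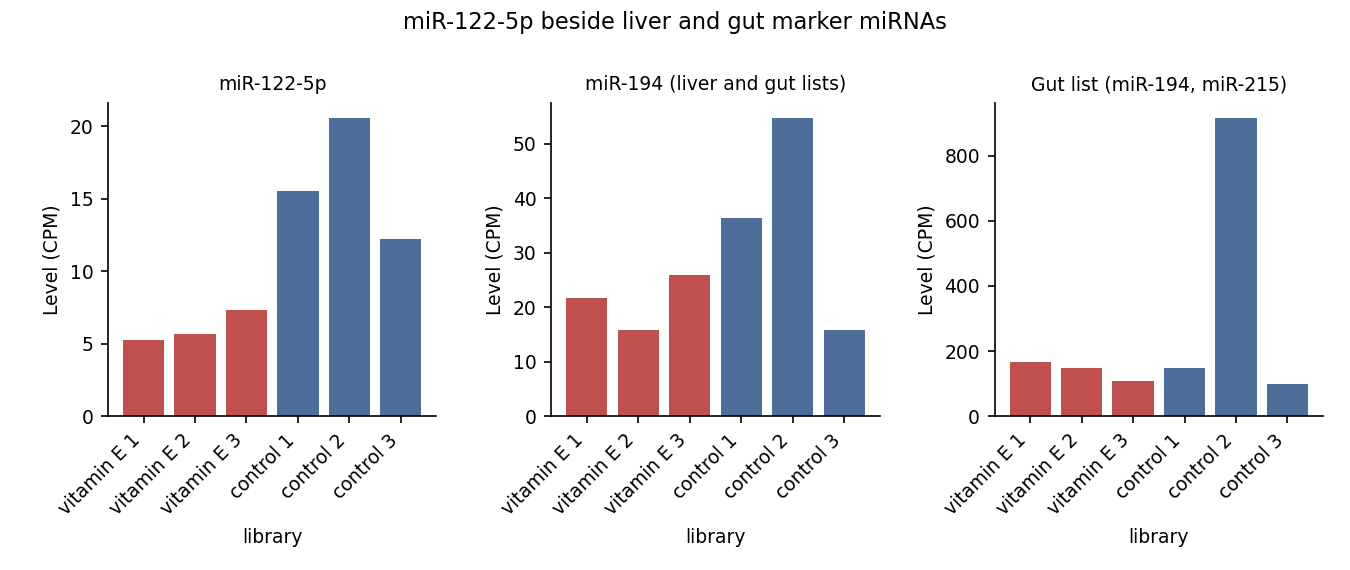
Level (CPM) in each of the 6 libraries of miR-122-5p (left), of miR-194, the 1 other listed miRNA of the liver list (middle), and of the gut list of miR-194 and miR-215 summed (right), with vitamin E in red and control in blue. miR-122-5p is higher in all 3 controls, miR-194 in 2 of them, and the gut sum is high in control 2 alone, at 918 CPM. Of that sum, 863 CPM came from miR-215-5p.

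miR-33-5p, the guide arm encoded within the SREBF genes, varied more between control libraries than between groups. It stood at 67.6, 53.2 and 40.9 CPM in the vitamin E libraries 1 to 3 and at 24.4, 52.3 and 70.9 CPM in the controls. The controls enclosed the vitamin E range, with control 1 the lowest and control 3 the highest of all 6. The highest control was 2.91-fold above the lowest, against 1.65-fold within vitamin E. The log2 fold change was 0.13 (SE 0.45; edgeR quasi-likelihood, Benjamini-Hochberg adjusted p = 0.901), and its interval ran from 0.533-fold to 2.25-fold. Its sign rested on single libraries, at -0.29 without control 1 and -0.071 without vitamin E 1.

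The passenger arm miR-33-3p did not follow the guide from library to library. Its counts were 23, 10 and 14 with vitamin E, against 16, 11 and 12 for the controls, and the groups overlapped. Its log2 fold change was 0.18 (SE 0.53; -0.29 without vitamin E 1 and -0.055 without control 3). As a share of all miR-33 counts it took 5.44%, 2.48% and 5.05% with vitamin E and 10.3%, 4% and 2.18% in control. The highest share, in control 1, has a 95% Wilson interval of 6.41% to 16.0%, and the lowest, in control 3, one of 1.25% to 3.77%. Such intervals cover counting error only and are too narrow where PCR copies of 1 molecule were counted apart. Between groups the shares were 4.32% ± 1.61 and 5.48% ± 4.24 (SD, n = 3; two-sided exact permutation p = 0.9, where 0.1 is the smallest that 20 relabellings can give).

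miR-103-3p and miR-107-3p, the pantothenate kinase miRNAs, were among the steadiest miRNAs of the table. miR-107-3p stood at 830, 830 and 848 CPM with vitamin E and at 792, 866 and 983 CPM in control. Its pooled within-group SD of log2 level, 0.11, was the second smallest of the 238 tested, whose median was 0.48. That of miR-103-3p was 0.23, and 10.9% of those tested had a smaller one. The 238 were not matched for abundance, and the SD of rare miRNAs also holds counting error. For miR-107-3p the vitamin E libraries fell inside the control range. The log2 fold change was -0.07 (SE 0.22), and the 95% interval ran from 0.665-fold to 1.36-fold, so that a halving or doubling lies outside it. Without control 1 it was -0.23 and without control 3 -0.018. miR-103-3p stood at 2577, 2288 and 2156 CPM with vitamin E and at 2490, 2430 and 1712 CPM in control, where control 3 was the lowest library. Its log2 fold change was 0.08 (SE 0.25, interval 0.712-fold to 1.57-fold), and it was -0.11 without control 3. Both had an adjusted p of 0.899 (edgeR quasi-likelihood, Benjamini-Hochberg).

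The balance of this pair was read within each library, which needs no scaling. Counts of miR-103-3p were 3.10, 2.76 and 2.54 times those of miR-107-3p with vitamin E and 3.14, 2.81 and 1.74 times in control. Control 3 stood apart, with the least miR-103-3p and the most miR-107-3p. The group means were 2.80 ± 0.284 and 2.56 ± 0.732 (SD, n = 3; two-sided exact permutation p = 0.9 on the log2 ratio). The log2 ratio differed by 0.17 between groups, and by -0.089 without control 3. Summed, the pair held 3176 ± 208 CPM with vitamin E and 3091 ± 343 in control, and counted as 1 miRNA it had a log2 fold change of 0.038 (edgeR quasi-likelihood, Benjamini-Hochberg adjusted p = 0.954). Their listed passenger arms were almost absent: miR-107-5p had 2 to 5 counts per library, and miR-103-2-5p, which belongs to 1 of the 2 miR-103 genes, had 0 to 2. No row was listed for the passenger arm of the other miR-103 gene. Over all libraries these were 0.0638% and 0.00818% of the counts of their hairpins. The miR-103 share sets the passenger arm of 1 gene against miR-103-3p of both, so the 2 shares are not alike.

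miR-148a-3p, the guide arm of its hairpin, had nearly equal group means and varied within the groups. It stood at 48098, 64652 and 42584 CPM with vitamin E and at 38320, 53157 and 65206 CPM in control. The highest libraries of the groups, vitamin E 2 and control 3, had nearly the same level, and control 1 was the lowest. Its log2 fold change was -0.01 (SE 0.27, interval 0.651-fold to 1.51-fold; edgeR quasi-likelihood, Benjamini-Hochberg adjusted p = 0.991). Its sign turned without control 3 (0.15), vitamin E 3 (0.056) or vitamin E 1 (0.032).

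The passenger arm miR-148a-5p was itself more abundant than miR-33-5p and miR-122-5p. It stood at 219, 166 and 227 CPM with vitamin E and at 151, 219 and 196 CPM in control, with a log2 fold change of 0.11 (SE 0.29; -0.095 without control 1 and -0.021 without vitamin E 3). It took 0.452%, 0.257% and 0.531% of miR-148a counts with vitamin E, against 0.392%, 0.410% and 0.300% in control. The lowest shares were in vitamin E 2 and control 3, the libraries with the most miR-148a-3p. That arm makes up nearly all of the counts that the share is divided by, so share and level are not independent. Group means of the share were 0.413% ± 0.141 and 0.367% ± 0.0589 (SD, n = 3; two-sided exact permutation p = 0.7). For all 5 hairpins the permutation p was 1 after Benjamini-Hochberg adjustment over the 5 arm shares.

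Patterns over the 6 libraries were compared after each miRNA's log2 level was centred on its own mean, as the root-mean-square difference between 2 miRNAs. This describes likeness and is no test, since the 6 points share their libraries and scaling. The difference is not divided by spread, so 2 miRNAs that vary little come out close whatever their patterns. miR-148a-3p was most like miR-29c-3p and miR-29a-3p (0.10 for both) and miR-15a (0.15), where its median against all others was 0.56. miR-33-5p was most like miR-24-3p (0.16), miR-18b-5p (0.21) and miR-142-5p (0.25), against a median of 0.73. miR-103-3p was most like miR-22-3p (0.093), miR-30a-5p (0.13) and the predicted novel_51 (0.17), and miR-107-3p most like the predicted novel_27 (0.10), miR-460a-5p (0.12) and novel_36 (0.15). The closest to miR-122-5p were miR-3529 (0.49), miR-194 (0.51) and miR-20b-3p (0.52), against a median of 0.85. Of these, miR-3529 and miR-20b-3p were rare, at means of 3.03 and 2.08 CPM over the 6 libraries. Within the set, miR-107-3p and miR-148a-5p had the smallest difference (0.21), and miR-122-5p and miR-33-5p the largest (1.0). The pooled within-group SDs of miR-107-3p and miR-148a-5p, 0.11 and 0.26, were both below the median of all tested, 0.48. The arms of miR-33 differed by 0.71, and those of miR-148a by 0.35.

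**Figure D4:**
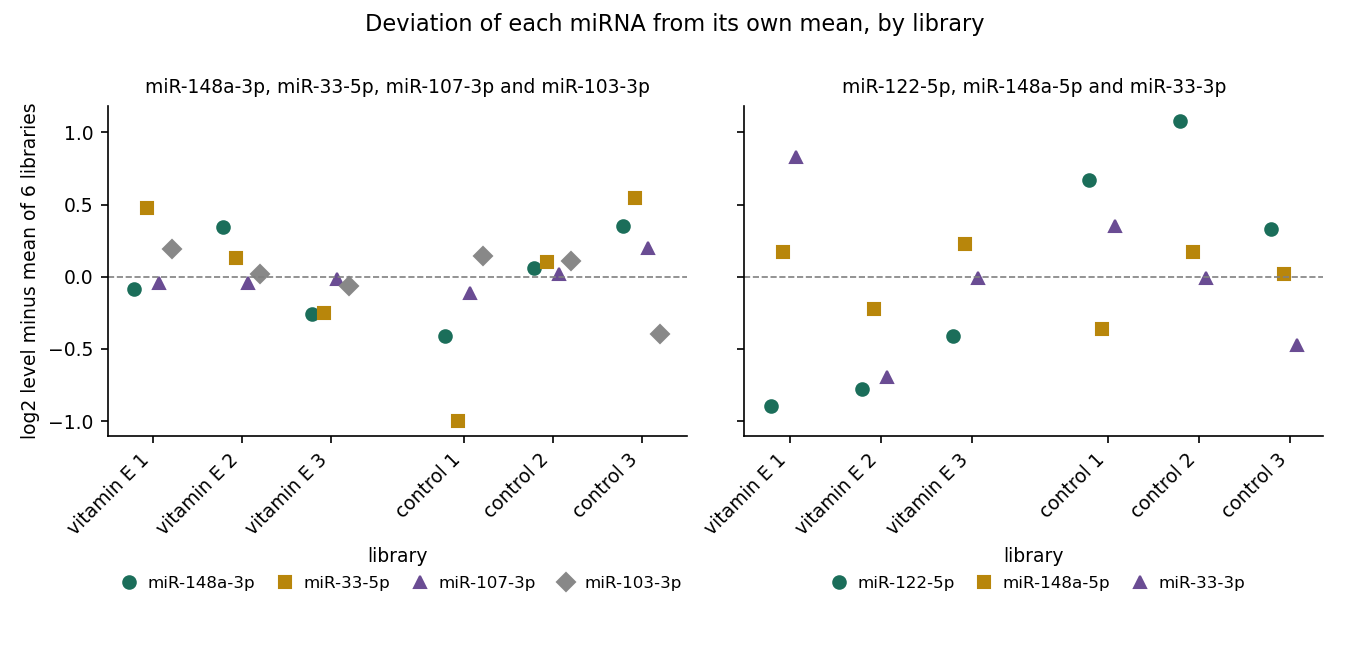
Log2 level of each tested miRNA minus its own mean over the 6 libraries, with the 4 guide arms other than miR-122-5p on the left and miR-122-5p with 2 passenger arms on the right. miR-33-5p and miR-148a-3p are lowest in control 1 (-0.996 and -0.41) and highest in control 3 (0.54 and 0.35), and miR-122-5p is below its mean in the 3 vitamin E libraries and above it in the 3 controls.

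Other miRNAs of the same biology were taken from a list of lipid metabolism miRNAs. Of 57 rows listed besides the set, 45 were tested, 20 above and 25 below 0 with a median log2 fold change of -0.09, and 0 passed in edgeR's quasi-likelihood test (2 at an unadjusted p under 0.05). Its most abundant members were miR-26a-5p, which targets insulin signalling and lipid synthesis genes in mouse liver, at -0.28 (SE 0.18), miR-10b-5p at -0.28 (SE 0.29) and miR-181a-5p at 0.06 (SE 0.31). The smallest p were those of miR-200b-3p at 0.86 (SE 0.31), miR-128-3p at -1.18 (SE 0.47) and miR-20b-3p at -1.21 (SE 0.53), with Benjamini-Hochberg adjusted p of 0.474 to 0.605 in edgeR's quasi-likelihood test. For miR-128-3p the groups overlapped: controls 1 to 3 stood at 13623, 3277 and 6417 CPM, with control 2 inside the vitamin E range of 3062 to 4118. miR-20b-3p had only 4 to 23 counts per library. The more abundant arm of that hairpin, miR-20b-5p, with 457 to 905 counts, went the other way at 0.58 (SE 0.35), with overlapping groups. The guide strands of the miR-15 and miR-16 group have a seed (the bases that pair with targets) that overlaps the seed of miR-103 and miR-107, as known from mammals. All 5 tested guides were below 0 with TMM, median-of-ratios and upper-quartile factors (median -0.19 with TMM), and 3 of 5 with library totals alone, where miR-16-5p was at 0.010 and miR-16c-5p at 0.047. None passed in edgeR's test (0 at an unadjusted p under 0.05). Among them miR-15c-5p stood at 1237 ± 149 against 1833 ± 416 CPM and miR-15b-5p at 561 ± 10.1 against 814 ± 205 (SD, n = 3). On these TMM-scaled levels the groups did not overlap for either, as for 12 of all 238 tested on the lower side (5.04%). The margins were narrow: the highest vitamin E library and the lowest control were at 1382 and 1402 CPM for miR-15c-5p. For miR-15b-5p they were at 572 and 586 CPM. Scaled by library totals alone, the groups overlapped for both. miR-16-5p, the most abundant, was at -0.08, miR-15a at -0.19, and miR-16c-5p at -0.05; the passenger arm miR-16-2-3p, which has another seed, was at -0.37. DESeq2, limma-voom and limma on log2 TPM likewise called 0 miRNAs of these lists.

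Markers of blood, vessel, muscle and other cells were detected in every library. The erythroid list (miR-451 and both arms of miR-144) summed to 3099 to 5295 CPM with vitamin E and 1406 to 3283 in control, and the leukocyte list, led by miR-146c-5p, to 31804 to 40835 and 30272 to 51031. Endothelial miR-126 summed to 20882 to 29959 and 24419 to 35493 CPM, and the stromal list, led by miR-199-3p, to 62070 to 70825 and 56304 to 89025. The pancreas list, led by miR-375, summed to 2.96 to 3.51 and 3.14 to 6.53 CPM. The groups overlapped in these sums, but a sum follows its most abundant member. The striated muscle list, led by miR-133a-3p, summed to 301 to 583 CPM with vitamin E and 276 to 518 in control; all 5 tested rows were above 0 with TMM (median 0.89; 4 of 5 with median-of-ratios and upper-quartile factors), none passed, and 1, miR-133b, had an unadjusted p under 0.05 (0.0221 in edgeR). The epithelial list, led by miR-200a-3p, summed to 324 to 397 and 314 to 431 CPM, with 6 of 8 above 0, none called, and miR-205b below 0 as given above. On the nervous system list miR-219a and miR-219b have identical counts; with these counted once, the sum was 2009 to 2649 CPM with vitamin E and 1687 to 2760 in control. miR-219a, the most abundant row of the list, had a log2 fold change of 0.0028 (SE 0.27). Without miR-219a and miR-219b, a subset that was not planned, the sum was 163 to 181 against 31.1 to 48.6 CPM. Most of it was miR-9-5p, and the groups did not overlap. Among single miRNAs the groups did not overlap for 33 of all 238 tested (13.9%). Of 5 tested rows with miR-219 counted once, 5 were above 0 with TMM (4 with median-of-ratios and upper-quartile factors) and 4 had an unadjusted p under 0.05. edgeR called 1 of them, miR-9-5p, and DESeq2 on the 238 called 3, adding miR-124a-3p and the other arm, miR-9-3p. How far these cells contributed to the levels of the 10 miRNAs was not tested.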

How the data were processed

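One table was used, with 551 named chicken miRNAs and 116 predicted ones in 6 libraries. Its deposited read counts are unnormalised whole numbers for each mature miRNA. Its deposited TPM equals count over library total times 1000000, without a term for length. Aligner, miRNA reference, genome build and counting rule: not given in the sources used here.

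Counts were fitted with edgeR 4.0.16 in R 4.3.3 (TMM factors, filterByExpr with min.count 10 and min.total.count 15, robust quasi-likelihood F test), with Benjamini-Hochberg adjustment over all 238 miRNAs that passed the filter. Each SE is the log2 fold change divided by the root of F. Arm shares and the miR-103-3p to miR-107-3p ratio were compared by exact permutation over 20 relabellings. In the centred log2 levels 0.5 CPM was added. Named were the 10 miRNAs of the rule, members of the lists, the 3 most alike and every miRNA called in the main edgeR fit. Of the miR-15 and miR-16 group every tested one was named. Lipid metabolism gave the 3 most abundant and the 3 with the smallest p. Each tissue list gave its most abundant row and its sum. Not every miRNA called in the other fits was named. miR-205a, miR-205b, miR-133b, miR-9-3p, miR-124a-3p and miR-20b-5p were added after their values were seen. The nervous system sum without miR-219 was not among the planned sums. The lists, the members and the tests were chosen with earlier results of these data known. Host genes came from GRCg7b; since no build is named for the files, no coordinates are given.

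In all, 18 other fits were run: other scaling factors, no filter or 10 CPM in 3 libraries, DESeq2 1.42.0, limma-voom and limma 3.58.1 on log2(TPM + 1) and log2(TPM + 0.1), the likelihood ratio test, a replicate block, leaving out each library, and miR-103-3p with miR-107-3p summed. DESeq2 on all listed miRNAs was added after seeing the data. Summing miR-122-5p with miR-122b was not run, because no row had that name.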

Additional observations from a re-analysis of the deposited data

How the results depend on the processing

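No tested miRNA of the set passed the threshold in any alternative fit other than DESeq2 on the 238 filtered miRNAs, which called 1, miR-122-5p. Over the table the calls were 0 with upper-quartile factors, 8 without a filter, 7 with DESeq2 (3 on all 667, chosen after seeing the data), 4 with the likelihood ratio test, 3 with limma on log2(TPM + 1), and 0 to 1 with a library left out; the cause was not tested. Log2 fold changes of miR-122-5p stayed below 0 in the 18 fits that hold it (17 of the planned ones and DESeq2 on all 667), from -1.61 to -1.16, with 16 unadjusted p under 0.05. Near 0, signs turned: miR-103-3p to -0.0050 with upper-quartile factors; miR-107-3p to 0.021 with library totals alone, 0.040 in both limma fits on TPM and 0.038 summed with miR-103-3p; miR-148a-3p to 0.070 with totals alone and 0.11 in those limma fits; miR-33-5p to -0.017 with the 10 CPM filter.

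With 1 library left out, log2 fold changes ran from -0.11 to 0.18 for miR-103-3p, -0.23 to -0.018 for miR-107-3p, -0.28 to 0.15 for miR-148a-3p, -0.095 to 0.23 for miR-148a-5p, -0.29 to 0.45 for miR-33-3p and -0.29 to 0.47 for miR-33-5p. The log2 ratio of miR-103-3p to miR-107-3p ran from -0.089 to 0.34 between groups. Group differences in passenger share ran from -0.0304 to 0.00663 percentage points for miR-107, -0.672 to 2.66 for miR-122, -0.0127 to 0.124 for miR-148a and -2.81 to 1.23 for miR-33.

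Deviations from the group means were close to uncorrelated between libraries of the same number (correlations -0.16, 0.046 and -0.020). The labels do not say what the number stands for, and these correlations cannot show whether such libraries were handled together. With the replicate block 5 miRNAs were called, none of the set, and miR-148a-3p was at 0.00081. With rare arms of 0 to 5 counts, depth limits what can be said of miR-107-5p, miR-103-2-5p and miR-122-3p.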
